A study of Mus musculus with 6 samples.

Results

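TGF-beta and BMP signalling in haematopoietic stem cells (HSCs) was followed through 10 genes: the ligand gene *Tgfb1*, the receptor genes *Tgfbr1*, *Tgfbr2*, *Tgfbr3*, *Bmpr1a* and *Bmpr2*, and the signal transducer genes *Smad2*, *Smad3*, *Smad4* and *Smad7*. They were picked by name, as the rows with these gene symbols among the 46959 rows of the expression table, and each of the 10 had 1 row. The rule itself used no measured values, but the 10 genes were chosen with earlier results of these data known.

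The study asked how HSCs depend on MAEA (macrophage-erythroblast attacher), a subunit of an E3 ubiquitin ligase complex that was first described in erythroblastic islands. HSCs were sorted from the bone marrow of 3 control and 3 MaeaCsf1r-Cre replicates and sequenced as bulk RNA. The mice were littermates of 8 weeks by the labels (the study's methods give a wider range of ages for young adults), both sexes were used, and about 2000 cells pooled from a pair of mice made up each library. In the MaeaCsf1r-Cre group floxed *Maea* (fl/fl in the study's genotyping) is recombined by a *Csf1r*-driven iCre. The iCre acts in HSCs and progenitors and also in macrophages, so macrophages of the marrow are targeted as well as the HSCs. Neither group was given a drug or another agent. The labels call the other group control, and its genotype is not given in the sources used here for these libraries. Elsewhere in the study the control littermates of this line were fl/fl without the Cre, or fl/+ with it. P-values below measure the spread between these 6 libraries, and values of a group are given in the order of replicates 1, 2 and 3.

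TGF-beta is secreted in a latent form and, once activated, binds a complex of type II and type I receptor kinases, which phosphorylate SMAD2 and SMAD3. BMPs use a parallel set of receptors that act on SMAD1, SMAD5 and SMAD9, and both branches share SMAD4 as the partner that enters the nucleus with them. In the bone marrow TGF-beta is best known for holding HSCs in quiescence, and SMAD7 and SMAD6 dampen the signal from the receptors.

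The libraries held 32957000 to 39601000 reads behind their scaling in control and 44147000 to 60926000 in MaeaCsf1r-Cre HSCs, estimated from the steps between low values. *Maea* itself averaged 116 ± 7.29 CPM (reads of a gene scaled to a common library size; SD, n = 3) in control and 88.8 ± 12.0 CPM (SD, n = 3) in MaeaCsf1r-Cre HSCs, every MaeaCsf1r-Cre library lying below every control library. The fitted difference in *Maea* was -0.39 on the log2 scale (standard error 0.13), with an adjusted p of 0.967 in limma and of 0.218 when libraries of the same replicate number were blocked. Reads from the deleted part and the rest of *Maea* enter these values together. All 11 HSC markers examined were expressed in every library, led by *Kit*, the stem cell factor receptor, at 393 to 700 CPM. *Kit*, *Ly6a* and *Slamf1* among them encode proteins by which the study sorted HSCs, so their presence is no separate evidence of cell identity. *Cd3e*, a T cell marker picked after its values were seen, stayed at or below 0.0303 CPM. The T cell list as a whole summed to at most 16.3 CPM, mainly from *Lck*. The 11 HSC markers summed to 1135 to 1819 CPM in control and 792 to 1495 CPM in MaeaCsf1r-Cre libraries. Erythroid markers summed to 838 to 3876 and 1635 to 4145 CPM in the same order, and further lists are given below.

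Levels differed widely among the 10 genes. Set per kilobase of the longest annotated transcript, so that genes can be compared, *Tgfb1* led with 79.5 ± 14.6 CPM per kilobase in control HSCs (SD, n = 3), followed by *Smad4* with 26.9 ± 5.42. *Tgfbr3*, *Smad2*, *Smad3* and *Tgfbr2* came next with control means of 9.14, 8.03, 7.84 and 7.51 CPM per kilobase, and neighbours among these 4 overlapped in their control libraries. *Tgfbr1* and *Smad7* followed with 3.66 and 3.25 and also overlapped. *Bmpr2* had 1.15 ± 0.221 and *Bmpr1a*, the lowest, 0.0947 ± 0.0428 CPM per kilobase (SD, n = 3 each). The order in MaeaCsf1r-Cre HSCs was the same except that *Smad3* (5.36 CPM per kilobase) stood below *Tgfbr2* (6.24), where in control it stood above.

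*Tgfb1* encodes the main TGF-beta ligand of the marrow and lies on chromosome 7 (GRCm38, chr7:25687002-25705077, plus strand). It had 184, 182 and 248 CPM in the control libraries and 199, 243 and 195 CPM in the MaeaCsf1r-Cre libraries. The highest library of the 6 was a control and so was the lowest, and the groups overlapped. Means were 205 ± 37.6 and 212 ± 26.5 CPM (SD, n = 3 each), with a log2 fold change of 0.06 (95% confidence interval -0.31 to 0.43, adjusted p = 0.979 in limma). Its sign turned, to -0.0097, -0.015 and -0.039, when control replicate 1, control replicate 2 or MaeaCsf1r-Cre replicate 2 was left out.

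Of the TGF-beta receptors, *Tgfbr1* encodes the type I kinase that phosphorylates SMAD2 and SMAD3 (chr4:47353222-47414931, plus strand). The control libraries had 15.2, 23.8 and 24.2 CPM, and the MaeaCsf1r-Cre libraries had 16.5, 16.8 and 16.3 CPM. The MaeaCsf1r-Cre libraries lay close together, and control replicate 1 fell below all of them, so that the groups overlapped. In the fit *Tgfbr1* had a log2 fold change of -0.30 (95% confidence interval -0.77 to 0.17, adjusted p = 0.967 in limma, unadjusted p = 0.180).

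*Tgfbr2* encodes the type II kinase, which binds the ligand and activates the type I receptor (chr9:116084293-116175360, minus strand). It had 55.5, 78.3 and 48.5 CPM in the control libraries and 39.2, 58.1 and 54.1 CPM in the MaeaCsf1r-Cre libraries. Replicate 2 was the highest of its group in both, and the groups overlapped. For *Tgfbr2* the log2 fold change came to -0.25 (95% confidence interval -0.76 to 0.25, adjusted p = 0.967 in limma).

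*Tgfbr3* encodes betaglycan, a coreceptor that presents ligand to the type II receptor (chr5:107106570-107289629, minus strand). Its values were 46.5, 50.5 and 69.8 CPM in the control libraries and 59.7, 66.4 and 58.8 CPM in the MaeaCsf1r-Cre libraries. Control replicate 3 was the highest library and the other 2 controls were the lowest. It was 1 of 2 genes of the 9 tested with a positive log2 fold change, 0.17 (95% confidence interval -0.23 to 0.56, adjusted p = 0.967 in limma), and correction for transcript length put it at 0.34 (adjusted p = 0.395 in limma with the block).

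*Bmpr2*, the type II receptor for BMPs (chr1:59763400-59879014, plus strand), had 12.4, 14.2 and 17.965 CPM in the control libraries and 7.81, 12.8 and 15.7 CPM in the MaeaCsf1r-Cre libraries. Each MaeaCsf1r-Cre library lay below the control of the same number, although the groups overlapped. In limma *Bmpr2* had a log2 fold change of -0.30 (95% confidence interval -0.93 to 0.32, adjusted p = 0.967 in limma, unadjusted p = 0.290, and 0.0991 with the replicate block).

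*Bmpr1a*, a type I receptor for BMPs (chr14:34410734-34503341, minus strand), was near the limit of detection. It had 0.425, 0.858 and 0.409 CPM in the control libraries and 0.427, 0.747 and 0.744 CPM in the MaeaCsf1r-Cre libraries, or an estimated 14 to 34 reads a library. All 6 values were above the level of 3 reads, which was 0.0492 to 0.0910 CPM and covers counting error only. *Bmpr1a* was under the filter of 1 CPM in 3 libraries and was therefore the only gene of the 10 not tested. Without that filter its log2 fold change was 0.07 (95% confidence interval -0.29 to 0.44), a scale on which the change of so low a gene is understated.

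*Smad3*, a receptor-activated transducer of the TGF-beta branch, differed the most of the 10 genes (chr9:63646767-63757994, minus strand). The control libraries had 32.9, 40.2 and 46.6 CPM. The MaeaCsf1r-Cre libraries had 19.6, 28.5 and 33.7 CPM. In each same-numbered pair the MaeaCsf1r-Cre library was the lower, and the only overlap was between MaeaCsf1r-Cre replicate 3 and control replicate 1, which differed by less than 1 CPM. Means were 39.9 ± 6.82 CPM in control and 27.3 ± 7.11 CPM in MaeaCsf1r-Cre HSCs (SD, n = 3 each).

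On the log2 scale *Smad3* differed by -0.55 (standard error 0.22, 95% confidence interval -1.07 to -0.03). Its unadjusted p in limma was 0.0393 and its p adjusted over all 12955 genes tested was 0.967, so it did not pass. With the replicate block the standard error was 0.12, the unadjusted p 0.00199 and the adjusted p 0.204 in limma. Across all genes tested 13.9% had an unadjusted p under 0.05 in that fit and 3.99% in the fit without the block. The fold change stayed below 0 under each of the 15 alternatives tried, from -0.72 without MaeaCsf1r-Cre replicate 3 to -0.34 without MaeaCsf1r-Cre replicate 1, and the adjusted p ranged from 0.204 to 0.99998.

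The other transducers stood closer to their controls. *Smad2*, the second TGF-beta transducer, had 55.2, 71.0 and 68.8 CPM in the control libraries and 58.8, 55.4 and 60.9 CPM in the MaeaCsf1r-Cre libraries. Control replicate 1 was the lowest library of the 6, and the groups overlapped. *Smad2* had a log2 fold change of -0.14 (95% confidence interval -0.46 to 0.17, adjusted p = 0.967 in limma), which turned to 0.046 after correction for transcript length. *Smad2*, *Smad4* and *Smad7* all lie on chromosome 18.

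*Smad4*, the partner shared by both branches, had 72.4, 109 and 92.1 CPM in the control libraries and 59.7, 78.6 and 86.2 CPM in the MaeaCsf1r-Cre libraries. Each MaeaCsf1r-Cre library was below its same-numbered control, while 2 of the 3 MaeaCsf1r-Cre libraries lay above control replicate 1. The log2 fold change was -0.28 (95% confidence interval -0.73 to 0.17, unadjusted p = 0.191 and adjusted p = 0.967 in limma). With the replicate block the interval was -0.53 to -0.03, the unadjusted p 0.0323 and the adjusted p 0.317 in limma.

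*Smad7*, the inhibitory Smad that is also a target of the pathway, had 15.2, 16.0 and 10.5 CPM in the control libraries and 8.93, 16.3 and 11.2 CPM in the MaeaCsf1r-Cre libraries. The lowest and the highest library of the 6 were both MaeaCsf1r-Cre. Its log2 fold change was -0.20 (95% confidence interval -0.80 to 0.40, adjusted p = 0.967 in limma).

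**Figure D1:**
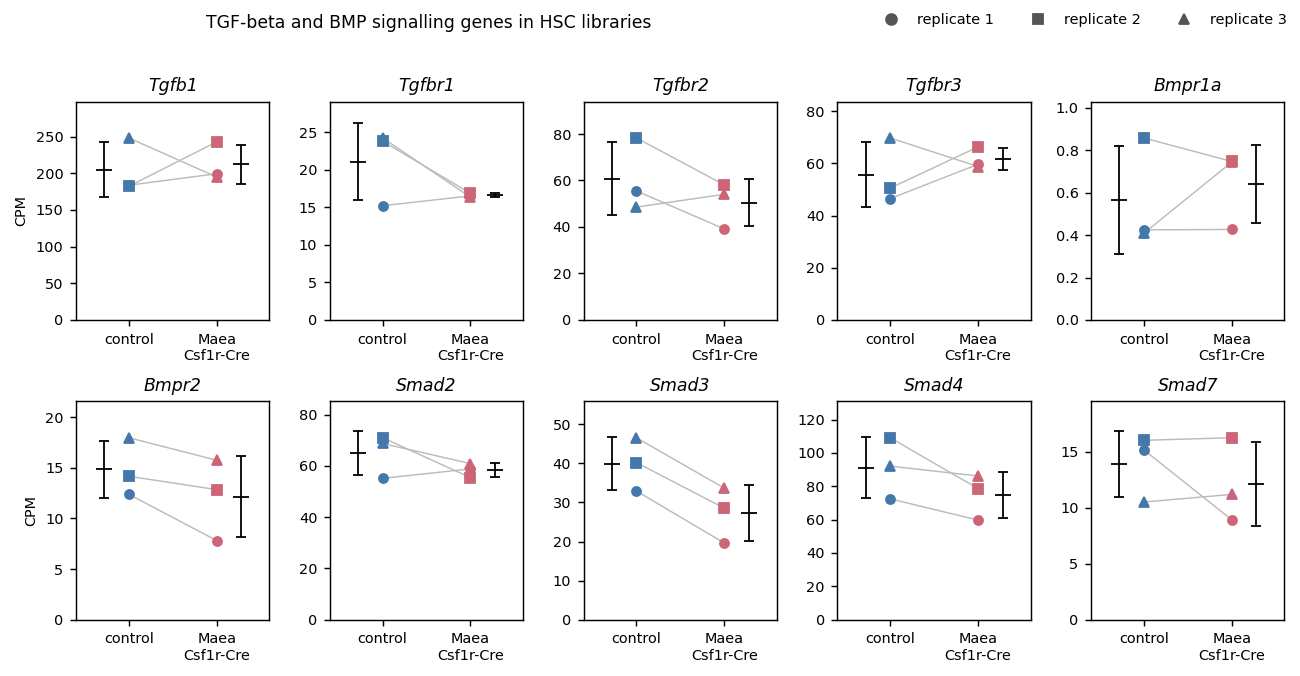
CPM (y axis, from 0, with its own range for each gene) of the 10 genes in 3 control (blue) and 3 MaeaCsf1r-Cre (red) HSC libraries. Shapes give the replicate number, grey lines join libraries of the same number, and black bars show the mean ± SD (n = 3). The lines of *Bmpr2*, *Smad3* and *Smad4* all slope downwards, and in no panel are the 2 groups fully apart.

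Across the 10 genes, 0 passed an adjusted p of 0.05 in limma, against 0.00772% of all genes tested (1 of 12955), with and without the block, and 0 passed with length correction and block, against 0.0964%. At an unadjusted p under 0.05, 1 of the 9 tested genes (*Smad3*) was lower in MaeaCsf1r-Cre HSCs, against 3.19% of all genes tested, and 2 (*Smad3* and *Smad4*) with the replicate block, against 10.8%. The count was 2 without control replicate 1, and 0 without control replicate 2 or 3 or MaeaCsf1r-Cre replicate 1 or 2. Over all 12955 genes tested, 949 had an unadjusted p under 0.05 in either direction without control replicate 1. In the other fits, in the order named, there were 266, 331, 286 and 438. Of the 9 tested genes 7 had a fold change below 0, as had 60.9% of all genes tested, and after correction for length 6 of 9, against 43.6%. *Bmpr2*, *Smad3* and *Smad4* were lower in all 3 same-numbered pairs, where 23.5% of all genes were, and 0 of the 10 were higher in all 3, where 13.2% were.

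None of the 10 genes had groups that did not overlap, against 8.55% of all genes tested. After rescaling by median ratios or quantile normalization *Smad3* was the 1 gene whose groups did not overlap, against 9.15% and 9.62% of all genes. Leaving out a library raised the count to 4 without control replicate 1 (*Tgfbr1*, *Smad2*, *Smad3* and *Smad4*), to 2 without control replicate 3 (*Tgfb1* and *Tgfbr3*), and to 1 without control replicate 2 (*Bmpr1a*) or MaeaCsf1r-Cre replicate 3 (*Smad3*). Over all genes tested these shares were 28.9%, 14.7%, 13.1% and 21.8%. *Bmpr1a* was not among the genes tested. Without control replicate 2 its closest libraries were at 0.425 CPM (control replicate 1) and 0.427 CPM (MaeaCsf1r-Cre replicate 1). The median log2 fold change of the 9 genes was -0.25, against -0.06 over all genes tested. With a library left out it ranged from -0.32 to -0.086 (-0.094 without control replicate 2 and -0.086 without MaeaCsf1r-Cre replicate 1). In bulk RNA, fewer cells that express a gene and less of its RNA per cell cannot be told apart.

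**Figure D2:**
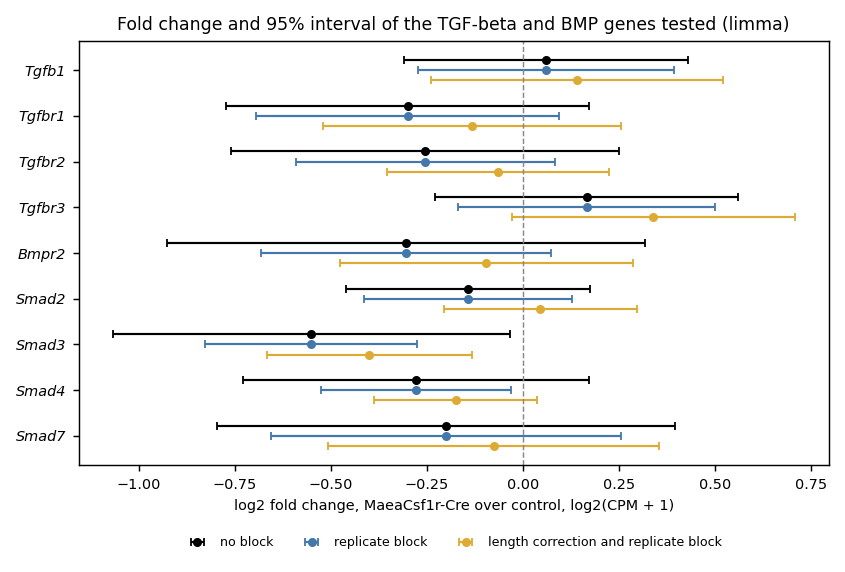
Log2 fold change on log2(CPM + 1) (x axis, MaeaCsf1r-Cre over control) of the 9 genes tested, with limma's 95% confidence interval. Black points are from the fit without the block, blue from the fit with the replicate block, and yellow from values corrected for transcript length and fitted with the block. Only the intervals of *Smad3* lie below 0 in all 3 fits, and *Smad4* is below 0 with the block but not after the correction for length. Corrected for length without the block, a fit not shown, the interval of *Smad3* ran from -0.83 to 0.03.

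Transcript length moved with the fold changes. Over the 12449 tested genes with an annotated length, Spearman's rho of log2 fold change with length was -0.299, a description across genes that share the same 6 libraries. The median log2 fold change went from 0.05 in the shortest of 5 length classes (median length 1094 bases) to -0.16 in the longest (6581 bases). The longest annotated transcripts of the 10 genes ran from 2573 bases for *Tgfb1* to 12899 bases for *Bmpr2*, and that of *Smad3* was 5090 bases. After correction for length the median of the 9 genes was -0.08, against 0.03 over all genes. *Tgfbr1* then had a log2 fold change of -0.13, *Tgfbr2* of -0.065, *Bmpr2* of -0.096 and *Smad7* of -0.077. *Smad3* had a log2 fold change of -0.40 (unadjusted p = 0.00865 and adjusted p = 0.241 in limma with the block), and *Smad4* had -0.18 (unadjusted p = 0.0935 in limma with the block). Without the block the corrected *Smad3* value had an unadjusted p of 0.0642 in limma (95% confidence interval -0.83 to 0.03).

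Markers of cell types also moved between the libraries, and their part in the values of the 10 genes was not tested. Of the 11 HSC markers, 9 had a log2 fold change below 0. At an unadjusted p under 0.05, 0 of them were lower without the block (3.19% of all genes), 7 with it (10.8%) and 5 with length correction and block (6.36%). Of the 14 macrophage markers 11 were tested and 6 were lower without overlap in MaeaCsf1r-Cre HSCs (6.06% of all genes), but 3 of these 6 (*C1qa*, *C1qb* and *C1qc*) passed the filter through the control libraries alone and could only come out lower. The list summed to 81.0 to 174 CPM in control and 46.6 to 121 CPM in MaeaCsf1r-Cre libraries. *C1qa*, a macrophage complement gene, was at 1.21 to 2.40 CPM in control and at most 0.0677 CPM in MaeaCsf1r-Cre libraries, while *Slc40a1*, an iron exporter that erythroid cells also express, was at 28.4 to 76.5 and 27.2 to 70.9 CPM and *Vcam1*, an adhesion molecule, at 2.60 to 28.5 and 0 to 30.0 CPM. The 10 stromal and endothelial markers summed to 86.2 to 131 and 42.4 to 140 CPM, and the 7 erythroid markers to 838 to 3876 and 1635 to 4145 CPM. Replicate 3 was the highest library of each group for the stromal and endothelial list (*Pecam1* and *Pdgfrb* its highest genes) and replicate 1 for the erythroid list (*Car1* and *Klf1*). Granulocyte markers (*Mpo* and *Prtn3* the highest of 9) summed to 76.7 to 293 CPM in control and 76.0 to 156 CPM in MaeaCsf1r-Cre libraries, and the 8 megakaryocyte and platelet markers (*Itga2b* and *Pf4* the highest) to 311 to 1367 and 377 to 755 CPM. The 5 multipotent progenitor markers summed to 511 to 894 and 440 to 584 CPM, with *Cd34* at 256 to 531 and 167 to 287 CPM and *Mki67*, a gene of dividing cells, at 120 to 149 and 140 to 177 CPM (unadjusted p = 0.0579 in limma, and 0.0174 with the block). B cell markers summed to at most 28.045 CPM in a library, nearly all from *Cd79b* (*Vpreb1* was at most 0.643 CPM), and T cell markers to at most 16.3 CPM, mainly *Lck* (*Cd4* was at most 3.16 CPM).

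Because *Smad3* stood furthest from its controls of the 10 genes, the 250 bases before its RefSeq start are shown, next to those of *Tgfbr2* on the same chromosome and strand, in 5′ to 3′ order on the minus strand of GRCm38.p6 (chr9:63757995-63758244 for *Smad3* and chr9:116175364-116175613 for *Tgfbr2*). Capitals mark CAGAC, the Smad-binding element that SMAD3 and SMAD4 recognise, GGCGCC, a GC-rich Smad site, and GGGCGG, the GC box of SP1, each searched on both strands.
Smad3: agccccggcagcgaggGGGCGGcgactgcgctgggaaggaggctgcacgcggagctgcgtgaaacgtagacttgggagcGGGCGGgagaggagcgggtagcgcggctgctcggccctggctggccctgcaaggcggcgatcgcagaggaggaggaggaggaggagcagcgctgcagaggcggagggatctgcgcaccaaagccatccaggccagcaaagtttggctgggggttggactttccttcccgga
Tgfbr2: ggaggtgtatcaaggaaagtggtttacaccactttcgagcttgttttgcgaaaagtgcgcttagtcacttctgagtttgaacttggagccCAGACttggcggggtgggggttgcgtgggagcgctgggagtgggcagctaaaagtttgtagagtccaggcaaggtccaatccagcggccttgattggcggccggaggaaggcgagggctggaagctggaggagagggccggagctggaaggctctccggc

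The *Smad3* window held 2 GGGCGG and no CAGAC or GGCGCC, and the *Tgfbr2* window held 1 CAGAC and neither of the others. Over the 32851 RefSeq windows of this length, 42.2% held CAGAC, 9.59% GGCGCC and 32.7% GGGCGG. RefSeq windows were matched for 6 of the 10 genes (*Tgfb1*, *Tgfbr1*, *Tgfbr2*, *Bmpr1a*, *Bmpr2* and *Smad3*). Of these, *Tgfbr1* (at the first of its 2 starts), *Bmpr1a* and *Bmpr2* each held 1 GGCGCC. The GC box was found 5 times at *Tgfb1*, 4 at *Bmpr1a*, 2 at the first start of *Tgfbr1* and 1 at *Bmpr2*, and CAGAC was found at *Tgfbr2* and at the other start of *Tgfbr1*. The palindrome GTCTAGAC was in 0 of the 7 windows and in 0.167% of all. A match is a description of letters and was not tied to any value of these libraries.

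Ratios of 2 genes in the same library do not depend on the scaling of the library, and 4 were compared. The log2 ratio of *Smad2* to *Smad3*, the parallel transducers of the TGF-beta branch, was 0.74, 0.82 and 0.56 in the control libraries and 1.58, 0.96 and 0.86 in the MaeaCsf1r-Cre libraries. All MaeaCsf1r-Cre values lay above all control values, and the ratio was higher in 3 of 3 same-numbered pairs. Means were 0.71 ± 0.13 and 1.13 ± 0.39 (SD, n = 3 each), a difference of 0.42 with a two-sided exact permutation p of 0.1 (adjusted over the 4 ratios, 0.4). That is the smallest p which 3 libraries against 3 allow. Most of the difference came with MaeaCsf1r-Cre replicate 1, without which it was 0.20.

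For the log2 ratio of *Tgfbr1* to *Tgfbr2*, the type I and type II receptors of TGF-beta, the difference was -0.06 (exact permutation p = 0.8) with overlapping groups. It turned to 0.21 without control replicate 3, to 0.04 without MaeaCsf1r-Cre replicate 2 and to 0.01 without MaeaCsf1r-Cre replicate 3. *Bmpr1a* to *Bmpr2*, the BMP receptor pair, differed by 0.56 (exact permutation p = 0.4), and *Smad7* to *Smad3*, inhibitor to transducer, by 0.35 (exact permutation p = 0.5). Both had overlapping groups and were higher in 2 of 3 pairs. The first was 0.22 without control replicate 3 and 0.93 without control replicate 2. The other was 0.044 without control replicate 3, 0.17 without MaeaCsf1r-Cre replicate 2, and 0.56 without control replicate 1 or MaeaCsf1r-Cre replicate 3. In the sign-flip test p was 0.75 for *Tgfbr1* to *Tgfbr2*, 0.5 for *Bmpr1a* to *Bmpr2* and 0.5 for *Smad7* to *Smad3*. For *Smad2* to *Smad3* it was 0.25, the smallest p that this test allows.

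**Figure D3:**
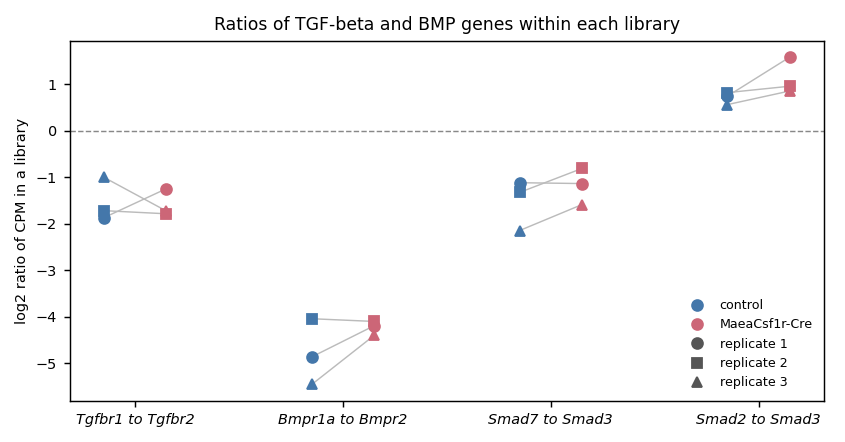
Log2 ratio of the CPM of 2 genes in each library (y axis) for the 4 ratios compared. Blue points are control and red points MaeaCsf1r-Cre libraries, shapes give the replicate number, and grey lines join the same number. Only *Smad2* to *Smad3* has all 3 MaeaCsf1r-Cre points (0.86 to 1.58) above all 3 control points (0.56 to 0.82).

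The rest of the pathway was read from a list of 139 genes in 9 roles, of which 138 were rows of the table, 92 passed the filter and 16 were at 0 in every library. Of the 92, 73 had a log2 fold change below 0 and 19 above, beside 60.9% of all genes below 0, and after correction for length 53 of the 90 with a length were below 0, beside 43.6%. The median was -0.17, or -0.03 after correction for length. None had an adjusted p under 0.05 in limma, with or without the block (0.00772% of all genes). At an unadjusted p under 0.05, 6 were lower and 3 higher in MaeaCsf1r-Cre HSCs, beside 3.19% and 0.803% of all genes. In the fit with the block there were 20 and 3, beside 10.8% and 3.11%, and with length correction and block 12 and 6, beside 6.36% and 7.35%. Groups did not overlap for 11 lower genes and 1 higher gene, beside 6.06% and 2.49%.

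**Figure D4:**
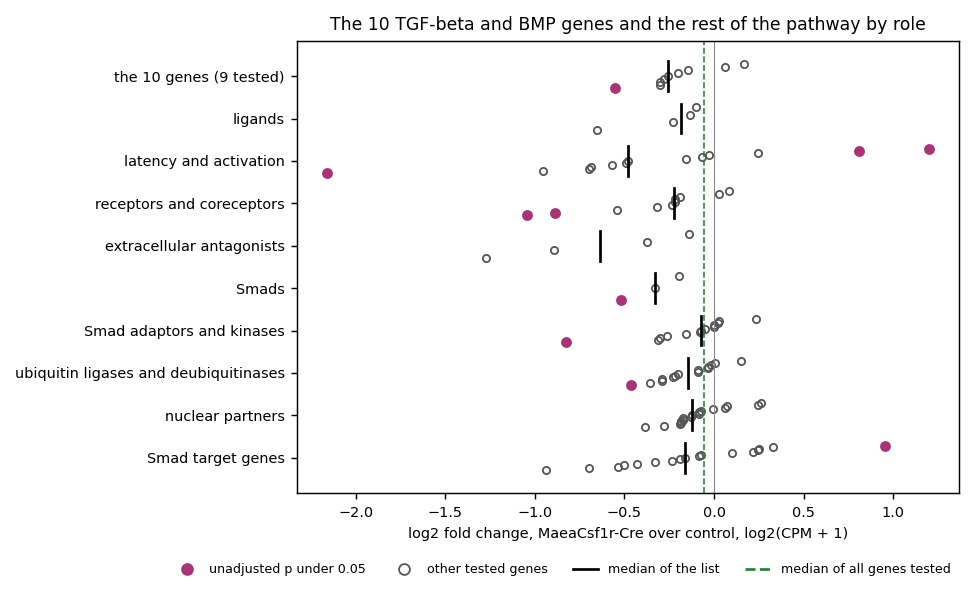
Log2 fold change on log2(CPM + 1) (x axis, MaeaCsf1r-Cre over control) of each tested gene by its role in the pathway, with the 10 genes on the top line. Filled points have an unadjusted p under 0.05 in limma without the block, short black lines are list medians, and the dashed green line is the median of all genes tested (-0.06). *Itgb5* lies furthest to the left (-2.16) and *Itgb6* furthest to the right (1.201).

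Among the other Smads 3 of 4 were tested and all 3 had a fold change below 0. *Smad5*, a transducer of the BMP branch, had 51.2, 71.2 and 62.6 CPM in the control libraries and 35.4, 47.3 and 45.2 CPM in the MaeaCsf1r-Cre libraries. Every MaeaCsf1r-Cre library lay below every control library. The fold change of *Smad5* on the log2 scale was -0.52 (standard error 0.17, unadjusted p = 0.0173 and adjusted p = 0.967 in limma, and 0.179 with the block), or -0.34 after correction for length. *Smad6*, the inhibitory Smad of the BMP branch, went from 4.48 ± 1.59 to 3.48 ± 1.76 CPM (SD, n = 3 each), with overlapping groups.

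Ligand genes were mostly at or near 0, where 18 of 24 stayed under 1 CPM in every library and 4 were tested. The smallest unadjusted p among them belonged to *Tgfb3*, a second TGF-beta isoform, with 0.438 to 4.62 CPM in control and 0.204 to 2.46 CPM in MaeaCsf1r-Cre libraries (log2 fold change -0.65, adjusted p = 0.967 in limma), and *Bmp1*, a metalloprotease and not a receptor ligand, with -0.23 (-0.07 after correction for length). None of the extracellular antagonists passed an unadjusted p of 0.05 without the block, where 4 of 13 were tested. *Vasn*, which encodes the TGF-beta binding protein vasorin, had a log2 fold change of -0.90, and *Bgn*, the small proteoglycan biglycan, had -1.27 (unadjusted p = 0.0737 in limma for each, 0.0148 and 0.0146 with the block).

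Genes of TGF-beta latency and activation held the widest differences, in opposite directions. *Itgb5*, the integrin beta chain of alpha-v beta-5, had 7.56, 13.97 and 3.94 CPM in the control libraries and 0.181, 0.770 and 2.41 CPM in the MaeaCsf1r-Cre libraries. *Itgb6*, the beta chain of the integrin alpha-v beta-6 that activates latent TGF-beta, had 0.546, 1.03 and 1.55 CPM in the control libraries and 3.30, 6.11 and 2.19 CPM in the MaeaCsf1r-Cre libraries. For each gene the groups did not overlap. Neither gene reached 1 CPM in every library of its lower group, so each passed the filter only with the group where it was high. Log2 fold changes were -2.16 (standard error 0.49, unadjusted p = 0.00248) for *Itgb5* and 1.201 (standard error 0.34, unadjusted p = 0.00838) for *Itgb6*, with an adjusted p of 0.967 each in limma, and 0.208 and 0.223 with the block. Of the 13 tested genes of this list 10 had a fold change below 0, or 7 after correction for length. *Mmp14*, a membrane-bound matrix metalloprotease, was among the 3 genes higher at an unadjusted p under 0.05 (log2 fold change 0.81, unadjusted p = 0.0309 and adjusted p = 0.967 in limma, and 0.0514 with length correction and block), together with *Itgb6* and *Tgfbi*, and is named after its values were seen.

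Of 16 receptors and coreceptors outside the 10 genes, 10 were tested and 8 had a fold change below 0. *Neo1* encodes neogenin, a receptor for repulsive guidance molecules, and had 3.59 to 4.54 CPM in control and 0.443 to 2.55 CPM in MaeaCsf1r-Cre libraries, with no overlap (log2 fold change -1.04, unadjusted p = 0.0177 in limma). *Rgmb*, a BMP coreceptor of that guidance molecule family, had 1.91 to 3.51 and 0.443 to 1.94 CPM, overlapping (log2 fold change -0.89, unadjusted p = 0.0244 in limma). Both genes had an adjusted p of 0.967. Neither reached 1 CPM in every MaeaCsf1r-Cre library, so each passed the filter only with the help of its control libraries.

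Of the adaptors and kinases 10 of 13 tested had a fold change below 0, but 4 of 12 after correction for length, and *Zfyve9* had the smallest p. It encodes SARA, which presents SMAD2 and SMAD3 to the receptor, and had 1.03, 1.49 and 1.37 CPM in the control libraries and 0.246, 0.272 and 0.361 CPM in the MaeaCsf1r-Cre libraries. The groups were apart, but *Zfyve9* passed the filter through its control libraries alone (log2 fold change -0.83, unadjusted p = 0.00587 and adjusted p = 0.967 in limma). *Tab2*, an adaptor of the kinase TAK1, went from 30.9 ± 0.880 to 25.0 ± 4.63 CPM (SD, n = 3 each) without overlap, a log2 fold change of -0.31, or -0.19 after correction for length.

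Of 14 ubiquitin ligases and deubiquitinases all were tested, 12 with a fold change below 0, or 8 after correction for length. *Nedd4l*, a ligase for activated SMAD2 and SMAD3, had 10.8 to 12.7 CPM in control and 7.32 to 9.18 CPM in MaeaCsf1r-Cre libraries (log2 fold change -0.46, unadjusted p = 0.0332 and adjusted p = 0.967 in limma). *Usp11*, a deubiquitinase of the type I receptor, had 34.0 to 45.3 and 27.5 to 33.7 CPM (log2 fold change -0.36, unadjusted p = 0.0591 in limma). Neither gene overlapped between the groups, and after correction for length with the block the log2 fold change of *Nedd4l* was -0.27, and the unadjusted p was 0.116 for *Nedd4l* and 0.0861 for *Usp11*.

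All 17 nuclear partners were tested and 13 had a fold change below 0, or 7 after correction for length. *Ep300*, an acetyltransferase that serves as a Smad coactivator, had 72.8 to 91.2 CPM in control and 58.6 to 71.8 CPM in MaeaCsf1r-Cre libraries with no overlap (log2 fold change -0.28, unadjusted p = 0.0850 in limma). After correction for length its log2 fold change was -0.082 (unadjusted p = 0.491 in limma with the block). *Ski*, a Smad corepressor, went from 71.7 ± 15.6 to 55.2 ± 14.8 CPM (SD, n = 3 each), lower in 3 of 3 pairs with overlapping groups (unadjusted p = 0.150 in limma, and 0.00688 with the block). Its log2 fold change of -0.39 became -0.22 after correction for length.

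Of genes known as Smad targets 17 were tested, 6 with a fold change above 0 and 11 below, beside 60.9% of all genes below 0. After correction for length 10 of 16 were below 0, beside 43.6% of all genes. *Tgfbi*, an extracellular matrix gene named for its induction by TGF-beta, had 8.37, 14.8 and 13.1 CPM in the control libraries and 12.3, 34.7 and 31.0 CPM in the MaeaCsf1r-Cre libraries. *Cdkn1c*, which encodes the cell cycle inhibitor p57 and marks quiescent HSCs, had 11.6, 25.6 and 27.4 CPM in the control libraries and 4.76, 13.1 and 15.7 CPM in the MaeaCsf1r-Cre libraries. *Tgfbi* was higher and *Cdkn1c* lower in 3 of 3 same-numbered pairs, with overlapping groups for each. The log2 fold change was 0.96 for *Tgfbi* (unadjusted p = 0.0388 in limma, adjusted p = 0.967, and 0.169 with the block) and -0.94 for *Cdkn1c* (unadjusted p = 0.0756, adjusted p = 0.967, and 0.141 with the block). After correction for length with the block the adjusted p in limma was 0.0999 and 0.0962.

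Among the tested genes outside the lists whose profile over the 6 libraries was nearest to that of *Smad3* were *Fam8a1* and *Gulp1*, with root mean square differences of 0.117 and 0.120 SD between scaled profiles. *Gulp1*, which encodes an adaptor protein of engulfment, had 6.49, 8.28 and 11.3 CPM in the control libraries and 3.30, 5.39 and 7.40 CPM in the MaeaCsf1r-Cre libraries. As in *Smad3*, the highest MaeaCsf1r-Cre library lay between the lowest control and the next, an order that the choice by nearest profile favours.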

How the data were processed

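RNA-seq of 6 HSC libraries was analysed. Per the labels and the study's methods, libraries were made with SMART-Seq v4 and Nextera XT and reads were processed with Trim Galore, STAR 2.5.3a (mm10) and Partek, with Ensembl release 83. The deposited values are CPM with 0.0001 added by the authors to each, which was subtracted here. Low values lay on whole reads in 70.2 to 72.9% of cases (within 0.02 of a read), so counts were not recovered and no count test was run. The listed rows took 75.2 to 80.2% of each scaling.

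Rows with at least 1 CPM in at least 3 libraries (12955) were tested with limma 3.58.1 (R 4.3.3, mean-variance trend) on log2(CPM + 1), two-sided, with Benjamini-Hochberg adjustment over all 12955 and a threshold of 0.05. Fold changes on this scale understate those of low genes. Across genes, same-numbered libraries deviated from the group mean together (Pearson's r = 0.627, 0.523 and 0.397, against -0.459 to -0.0538 for different numbers). Deviations cancel within a group, so the values for different numbers partly follow from the others and are no separate evidence. The labels do not say what a number marks, so the pairing is not settled. Each fit was repeated with the number as a block, as an alternative. Ratios were tested by exact permutation over 20 labellings, which ignores the replicate numbers, and by flipping the signs of the same-numbered differences (8 labellings). The fits were tested on simulated data.

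The 10 genes and the lists were chosen with earlier results of these data known. Genes named were the 10, *Maea*, the 2 of each pathway list with the smallest p, the 3 nearest to the gene with the largest fold change, and the 2 highest of each marker list. Some genes that this rule gives are not reported here. Other markers named (*Cd3e* and *C1qa*), *Mmp14*, and genes in the closing section, were chosen after their values were seen. Gene positions and lengths came from GENCODE M21 (GRCm38), a later annotation than the authors', and promoter windows from RefSeq (GRCm38.p6), cut to the 250 bases before the start. Alternatives were the block, length correction (loess, span 0.5) with and without it, each library left out, median ratio or quantile scaling, a fit without the trend, a pseudocount of 0.1, and the filter removed or set at 10 CPM. Tables and plots were made in Python 3.11.15 (pandas 2.3.3, numpy 2.4.6, matplotlib 3.10.9).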

Additional observations from a re-analysis of the deposited data

How the results depend on the processing

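Under the 15 alternatives tried, 0 of the 10 genes and 0 of the wider pathway genes had an adjusted p under 0.05. *Smad3*, *Smad4*, *Smad7*, *Bmpr2*, *Tgfbr1*, *Tgfbr2* and *Maea* kept a fold change below 0, and *Tgfbr3* one above 0, in all of them, though with a library left out *Bmpr2* ranged from -0.50 to -0.042, *Smad7* from -0.42 to -0.018, *Tgfbr2* from -0.40 to -0.060 and *Tgfbr3* from 0.050 to 0.34. The log2 fold change of *Smad2* became 0.046 with length correction, with or without the block, and that of *Tgfb1* ranged from -0.039 to 0.21 with a library left out. The number of the 10 genes at an unadjusted p under 0.05, 1 as reported, was 2 with the replicate block, 0 with no filter, 0 with length correction, and 0 to 2 with a library left out. Genes without overlap numbered 1 after median ratio scaling and 1 after quantile normalization, and 0 to 4 with a library left out. Of the wider pathway, 6 lower genes at an unadjusted p under 0.05 became 12 with no filter, 1 with a filter of 10 CPM, 20 with the replicate block, 12 with length correction and block, and 4 to 12 with a library left out (12 without MaeaCsf1r-Cre replicate 3). The 3 higher ones became 1 with no filter, 6 with length correction and block, and 1 to 3 with a library left out (1 without control replicate 3). Over all genes tested the number at an unadjusted p under 0.05, in either direction, moved too. It was 517 of 12955 as reported, 1137 of 24925 with no filter and 302 of 9298 with a filter of 10 CPM. With the block it was 1805 of 12955, with length correction 408 of 12449, and with both 1707 of 12449. With a library left out it ranged from 266 to 949 of 12955. The difference in the ratio of *Tgfbr1* to *Tgfbr2* ranged from -0.23 to 0.21 with a library left out. The block changed no call at an adjusted p of 0.05 among these genes, and the causes of these shifts were not tested. *Bmpr1a*, at an estimated 14 to 34 reads a library, was tested only without the filter.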

Other observations

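Some genes of the pathway were highest in replicate 3 of both groups. *Acvrl1*, the endothelial type I receptor ALK1, had 1.88, 0 and 2.34 CPM in control and 0.0492, 0.408 and 3.16 CPM in MaeaCsf1r-Cre replicates 1, 2 and 3. *Nrp1*, the coreceptor neuropilin-1, had 1.46, 0 and 5.37 CPM and 0.115, 0.0226 and 7.69 CPM in the same order. *Id3*, a BMP target, had 3.55, 1.11 and 10.5 CPM and 0.624, 1.11 and 20.6 CPM.

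*Cdh5*, which encodes the endothelial adhesion molecule VE-cadherin, had 5.82, 0.278 and 12.999 CPM in control and 0.624, 0.566 and 22.1 CPM in MaeaCsf1r-Cre replicates 1, 2 and 3. It was likewise highest in replicate 3 of each group. Its part in the values of the other genes was not tested.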
